A study of Homo sapiens with 4 samples.

Results

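The genes described here encode Fc receptors, which bind the constant part of antibodies, and the chains and kinase that carry their signal in myeloid cells. They are FCGR1A, FCGR2A, FCGR2B, FCGRT, FCAR, FCER1G, TYROBP and SYK, 8 of the 19775 genes that had a probe set of their own on the array. They were chosen by name, with every probe set annotated to them, also where other genes share it, which gave 19 of 54675 probe sets. A probe set is a group of short probes that read 1 stretch of a transcript, and its value is a log2 level. The cells were THP-1, a human line of monocytic leukaemia cells. One array each was made from Pam3CSK4-treated cells kept with platelet-like particles for 24 h, from Pam3CSK4-treated cells kept with the particles for 12 h, from cells treated with Pam3CSK4 alone and from untreated resting cells. Pam3CSK4, a lipopeptide made to mimic bacterial ones, is sensed by TLR2 together with TLR1, and the labels do not name the source of the particles. There were 4 arrays with 1 per condition, so no difference has a replicate check, no test was possible, and precision is limited by having so few arrays. The co-culture samples described as 24 h and 12 h have titles that carry 25 and 13, and the labels do not say how long Pam3CSK4 alone was applied.

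Receptors for IgG and IgA let macrophages and monocytes take up antibody-coated particles. FCGR1A, the high-affinity IgG receptor, and FCAR, the IgA receptor, lack a signalling motif and lean on FCER1G, the common gamma chain, whose cytoplasmic tyrosine motif is phosphorylated by Src-family kinases and then holds the kinase SYK. FCGR2A carries such a motif in its own tail, while FCGR2B carries an inhibitory motif that recruits the lipid phosphatase SHIP. TYROBP, also called DAP12, is the matching chain for other myeloid receptors such as TREM2 and CLEC5A. FCGRT, the neonatal Fc receptor, pairs with beta-2 microglobulin and returns IgG from endosomes to the cell surface. Platelets also carry FCGR2A, and FCER1G together with their collagen receptor GP6.

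The sequences just upstream of the start of transcription are shown for 3 IgG receptor genes of chromosome 1, and for FCER1G, which differed alike on both of its probe sets. RefSeq windows of human build GRCh38.p14 matched 7 of the 8 genes, and 250 bases before each start are printed 5′ to 3′ on the strand of the gene, which is plus in each case. Capitals mark letters that fit TTCNNNGAA, the motif called GAS, or GAGGAA, the core read by the myeloid factor PU.1, or GAAA and GAAA set 2 bases apart, the interferon-response element called ISRE, on either strand.
FCGR1A, chr1:149782444-149782693: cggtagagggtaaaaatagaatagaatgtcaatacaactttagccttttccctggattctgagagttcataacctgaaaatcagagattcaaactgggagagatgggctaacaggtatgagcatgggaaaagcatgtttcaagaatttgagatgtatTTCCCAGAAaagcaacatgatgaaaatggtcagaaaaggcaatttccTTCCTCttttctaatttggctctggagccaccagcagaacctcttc
FCGR2A, chr1:161505207-161505456: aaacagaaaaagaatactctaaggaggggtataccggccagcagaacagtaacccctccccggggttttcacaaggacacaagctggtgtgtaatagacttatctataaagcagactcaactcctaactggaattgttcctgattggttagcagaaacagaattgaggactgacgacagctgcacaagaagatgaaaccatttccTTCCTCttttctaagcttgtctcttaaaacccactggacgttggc
FCGR2B, upstream start, chr1:161646993-161647242: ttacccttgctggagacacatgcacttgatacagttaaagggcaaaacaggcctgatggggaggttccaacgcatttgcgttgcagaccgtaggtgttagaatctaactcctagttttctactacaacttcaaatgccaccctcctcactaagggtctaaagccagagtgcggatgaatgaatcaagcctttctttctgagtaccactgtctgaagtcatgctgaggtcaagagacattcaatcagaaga
FCGR2B, downstream start, chr1:161662893-161663142: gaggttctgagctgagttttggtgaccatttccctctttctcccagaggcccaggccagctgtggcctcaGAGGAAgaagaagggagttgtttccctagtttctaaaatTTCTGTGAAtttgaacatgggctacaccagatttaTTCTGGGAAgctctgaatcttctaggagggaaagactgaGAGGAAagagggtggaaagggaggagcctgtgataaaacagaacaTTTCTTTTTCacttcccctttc
FCER1G, chr1:161215045-161215294: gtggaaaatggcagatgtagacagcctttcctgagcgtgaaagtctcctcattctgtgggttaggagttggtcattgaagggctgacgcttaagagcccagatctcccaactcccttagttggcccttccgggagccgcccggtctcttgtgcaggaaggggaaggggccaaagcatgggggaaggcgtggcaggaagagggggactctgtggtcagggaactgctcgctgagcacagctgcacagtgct

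The window of FCGR1A held 1 GAS match that starts 93 bases before the start of transcription, and 6.57% of 35116 RefSeq windows of that length held such a match. FCGR1A and FCGR2A shared an unbroken stretch of 20 bases, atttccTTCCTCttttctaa, which begins 52 bases before the start of FCGR1A and 51 bases before that of FCGR2A. The stretch was picked as the longest run that these 2 windows share, so that both hold it was set in advance. Of the 35116 windows, 2 held it, those of these 2 genes, which is given as a description. The capitals in it are a GAGGAA match on the opposite strand. GAGGAA was found in 6 of the 10 windows of the 7 genes, against 23.6% of all windows, and those 6 belonged to 5 genes, FCGR1A, FCGR2A, FCGR2B, SYK and TYROBP. The downstream start of FCGR2B had matches to all these motifs, with 3.02% of all windows holding an ISRE match, and its upstream start had none. The window of FCER1G held none of these letters, and no window of the 7 genes matched the consensus of the NF-kB site, which 5.21% of all windows did. A match is a run of letters and was not tested as a site.

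The cells carried the defining genes of their label. Of 10 monocyte markers, 8 had a probe set of their own, and all 8 reached 6.19, the median of all values and the filter level used here, on each array. Their summed log2 level was 90.9 at 24 h, 86.6 at 12 h, 90.8 with Pam3CSK4 and 78.4 in resting cells. Of the 8, 5 were at least 2-fold higher with Pam3CSK4 than in resting cells and 1, MNDA at -1.14, was lower. Of all genes that reached that level on at least 1 array, 5.85% differed 2-fold in either direction. S100A9 at 3.48 and S100A8 at 2.74 differed most, and 2 ITGAM probe sets differed by 2.20 and -0.19. For GAPDH, the control probe set at the 3′ end exceeded that at the 5′ end, a gap that is smaller in intact RNA, by 0.70, 0.92 and 0.59 log2 on the 24 h, 12 h and Pam3CSK4 arrays and 2.16 on the resting array. For ACTB the gap was 2.90, 3.17 and 2.91 log2 on those arrays and 3.41 on the resting array. The resting array had the widest gap for both genes. The gap thus moves with each difference from resting cells. Among the treated arrays it was widest at 12 h for both genes, so it also moves with each difference from the 12 h array. Its part in any of these differences was not tested. RMA, the method behind the deposited values, brings the arrays to nearly the same spread of values, so shifts shared by most genes can be hidden. The array medians were 6.17 at 24 h, 6.22 at 12 h, 6.18 with Pam3CSK4 and 6.19 in resting cells. In a bulk sample fewer cells with a transcript and less transcript per cell cannot be told apart.

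Pam3CSK4 alone was set against resting cells first. The common chain FCER1G was about 2-fold higher with Pam3CSK4 on both of its probe sets. The inhibitory receptor FCGR2B was at least 2-fold higher on its only probe set, and a probe set of FCAR differed by more. Both of the latter lay under the filter level in resting cells, so the size of their differences is not exact. The signal that FCGR1A shares with its pseudogenes was level. SYK on its brighter probe sets and the transport receptor FCGRT were close to their resting values. A gene stood by its probe set of highest mean among those naming it alone, and entered where that probe set reached the filter level on at least 1 array. By that rule 7 of the 8 genes entered, and 1 of them, FCGR2B, was at least 2-fold different, against 5.85% of the 13410 genes that entered. The median difference of the 7 was 0.36 log2, beside -0.05 over the 13410 genes, and it was 0.12 with no filter or with the mean of probe sets and -0.12 with the 75th percentile filter. FCGR2B and FCAR, whose value is that median, entered only through the arrays on which they were high, so neither the count nor the median supports a statement about the whole group.

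**Figure D1:**
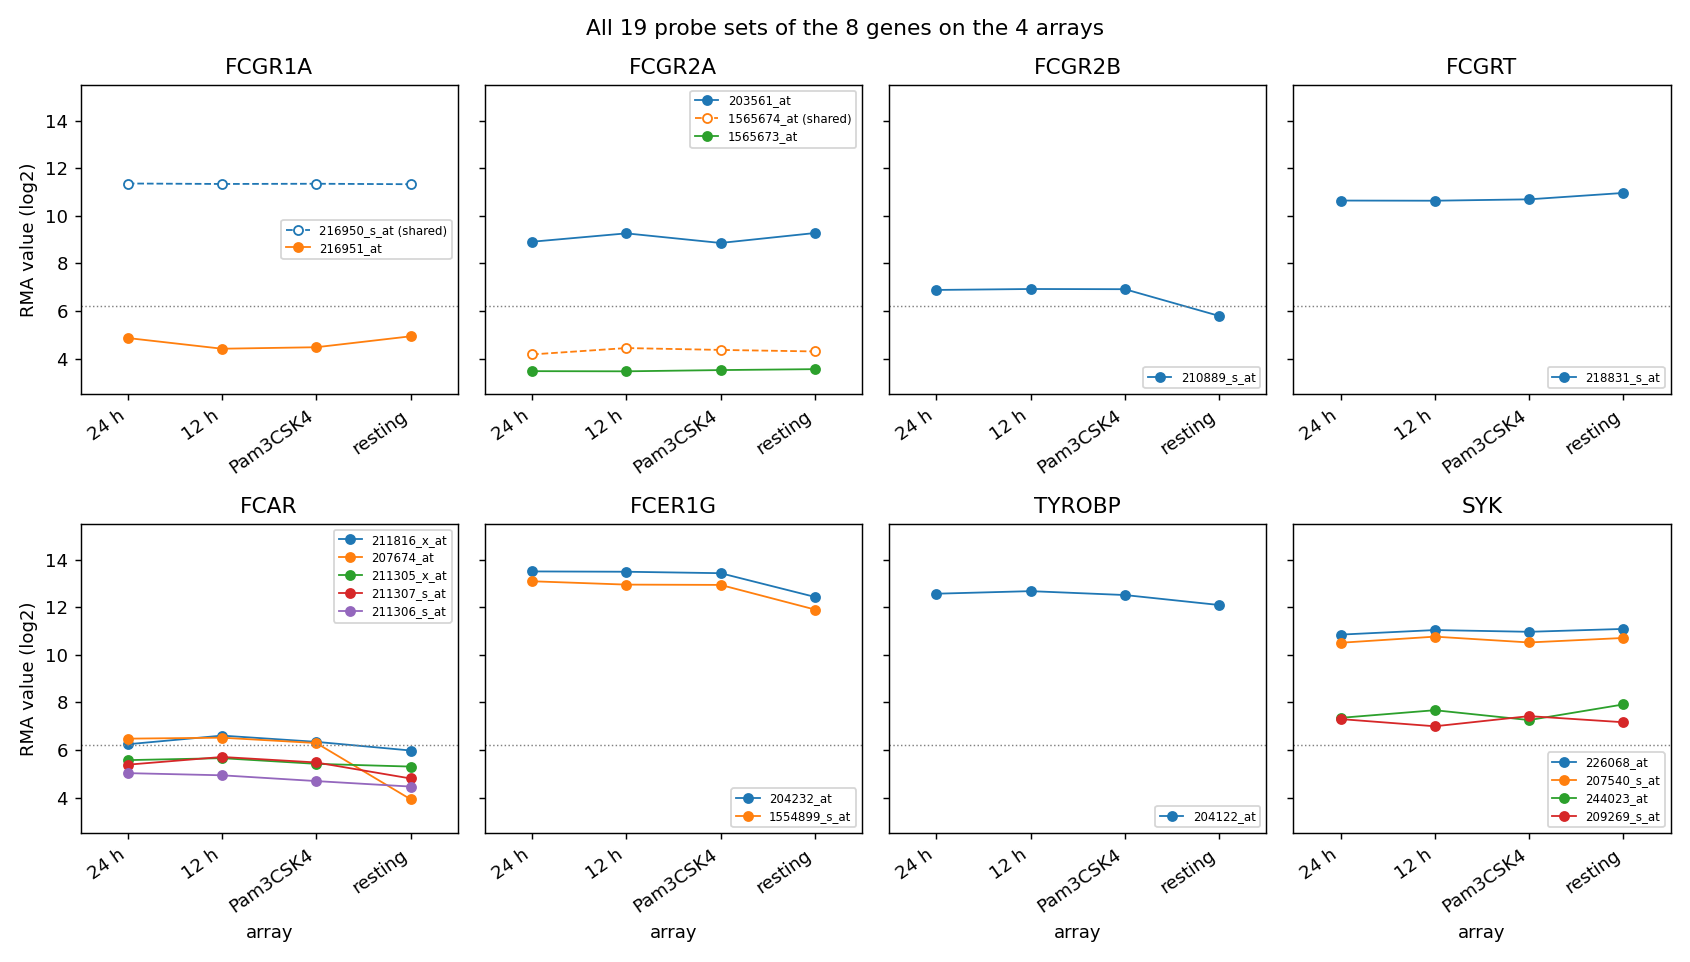
RMA values on the log2 scale of all 19 probe sets, 1 panel a gene, with 1 point for each of the 4 arrays and a line joining the points of a probe set. Open points with dashed lines are probe sets shared with other genes, and the dotted line is the filter level of 6.19. The resting points of FCER1G, FCGR2B and the FCAR probe set at 3.93 lie below the other 3 arrays, while the shared FCGR1A probe set spans 0.03 log2.

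Among the activating IgG receptors, FCGR1A was read mainly by a probe set that also names the pseudogenes FCGR1BP and FCGR1CP. Its value was 11.36 at 24 h, 11.34 at 12 h, 11.35 with Pam3CSK4 and 11.33 in resting cells. The 4 arrays thus differed by 0.03 log2 at most, and the Pam3CSK4 minus resting difference was 0.02. A further probe set, annotated to FCGR1BP alone, was as level, with 12.04 at 24 h, 12.04 at 12 h, 12.01 with Pam3CSK4 and 12.00 in resting cells. Signals of the receptor gene and its near-identical copies cannot be told apart on either of these. The only probe set naming FCGR1A alone, 216951_at, stayed under the filter level on every array, at 4.86, 4.41, 4.48 and 4.94 in the same order. FCGR1A therefore has no entered value of its own.

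FCGR2A, the activating low-affinity receptor, had 1 of its 3 probe sets above the filter level. On it the value was 8.91 at 24 h, 9.26 at 12 h, 8.86 with Pam3CSK4 and 9.28 in resting cells. The 12 h and resting arrays were the higher pair, and the 24 h and Pam3CSK4 arrays the lower pair. The Pam3CSK4 minus resting difference was -0.42 log2, and 10.7% of the 13410 genes differed at least as far downward. Its other probe sets, 1 of them shared with FCGR2C, lay between 3.47 and 4.44 on the arrays, where the level was not above the filter.

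FCGR2B, the inhibitory counterpart, was read by 1 probe set. It stood at 6.88 at 24 h, 6.92 at 12 h and 6.92 with Pam3CSK4, and at 5.79 in resting cells. The 3 treated arrays lay within 0.04 log2 of each other and the resting array lay apart from them. The Pam3CSK4 minus resting difference was 1.12 log2, with the resting value under the filter level, and no exact fold is given. The near-identical FCGR2C, which RefSeq lists as a transcribed pseudogene, had 3 probe sets above the filter that differed by 0.09, 0.27 and 0.30 in the same comparison. The genes FCGR2A, FCGR2B and FCGR2C share long stretches of sequence, and how much each gene gives to each value was not tested.

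FCAR, the receptor for IgA on monocytes and neutrophils, had 5 probe sets that disagreed in size. The probe set of highest mean, 211816_x_at, read 6.24 at 24 h, 6.61 at 12 h, 6.34 with Pam3CSK4 and 5.98 in resting cells. On 207674_at the values were 6.48, 6.52 and 6.29 on the 24 h, 12 h and Pam3CSK4 arrays and 3.93 on the resting array, at the 13.5th percentile of that array. The differences between Pam3CSK4 and resting cells were 0.36 and 2.36 log2 on these probe sets, and 0.11, 0.23 and 0.67 on the other 3, which stayed under the filter level. The sign was the same on all 5, while the size was at least 2-fold on 1 of them. That probe set entered through the treated arrays only, and here too no exact fold is given.

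FCGRT stood slightly lower after treatment. Its probe set read 10.64 at 24 h, 10.63 at 12 h, 10.69 with Pam3CSK4 and 10.96 in resting cells, with the resting array highest and the treated arrays within 0.06 of each other. The Pam3CSK4 minus resting difference was -0.27, a size that 20.1% of genes matched or passed downward. Its partner B2M, the beta-2 microglobulin gene, was at 14.88 at 24 h, 14.84 at 12 h, 14.84 with Pam3CSK4 and 14.55 in resting cells, a difference of 0.29 between Pam3CSK4 and resting cells.

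The common gamma chain FCER1G was higher after treatment on both of its probe sets. On 204232_at it read 13.51 at 24 h, 13.49 at 12 h and 13.43 with Pam3CSK4, against 12.44 in resting cells. On 1554899_s_at it read 13.09, 12.95 and 12.94 on those arrays, against 11.91 in resting cells. Both probe sets placed the resting array lowest and the 3 treated arrays close together. The Pam3CSK4 minus resting differences were 0.996 and 1.03 log2, which fall on either side of the 2-fold line, and 4.16% of genes differed at least as far upward as the first. TYROBP, the other chain, read 12.57 at 24 h, 12.68 at 12 h, 12.51 with Pam3CSK4 and 12.10 in resting cells. The resting array was again lowest, and the Pam3CSK4 minus resting difference was 0.42.

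SYK, the kinase that binds both chains, was measured above the filter by all 4 of its probe sets. The probe set of highest mean, 226068_at, read 10.85 at 24 h, 11.04 at 12 h, 10.97 with Pam3CSK4 and 11.09 in resting cells, and 207540_s_at read 10.51, 10.77, 10.52 and 10.71 in that order. On these brighter probe sets the arrays spanned 0.24 and 0.26 log2. The Pam3CSK4 minus resting differences of the 4 were -0.12, -0.19, -0.66 and 0.26, so that 3 pointed downward and 1, 209269_s_at, upward. None reached 2-fold.

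Over probe sets, 12 of the 19 named 1 of these genes alone and reached the filter level. Of the 12, 3 were at least 2-fold higher with Pam3CSK4 than in resting cells and 0 lower, against 3.94% higher and 1.44% lower among the 23905 such probe sets of all genes. They belonged to FCAR, FCGR2B and FCER1G. In resting cells those of FCAR and FCGR2B did not reach the filter level, so they entered only through the treated arrays. Several of the 12 also read the same gene, with 4 from SYK and 2 each from FCAR and FCER1G. This count therefore supports no statement about the whole group either. Of the other 9, the differences ran from -0.66, on the SYK probe set 244023_at, to 0.996. The spread between samples of 1 condition, against which such differences would be read, was not measured.

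**Figure D2:**
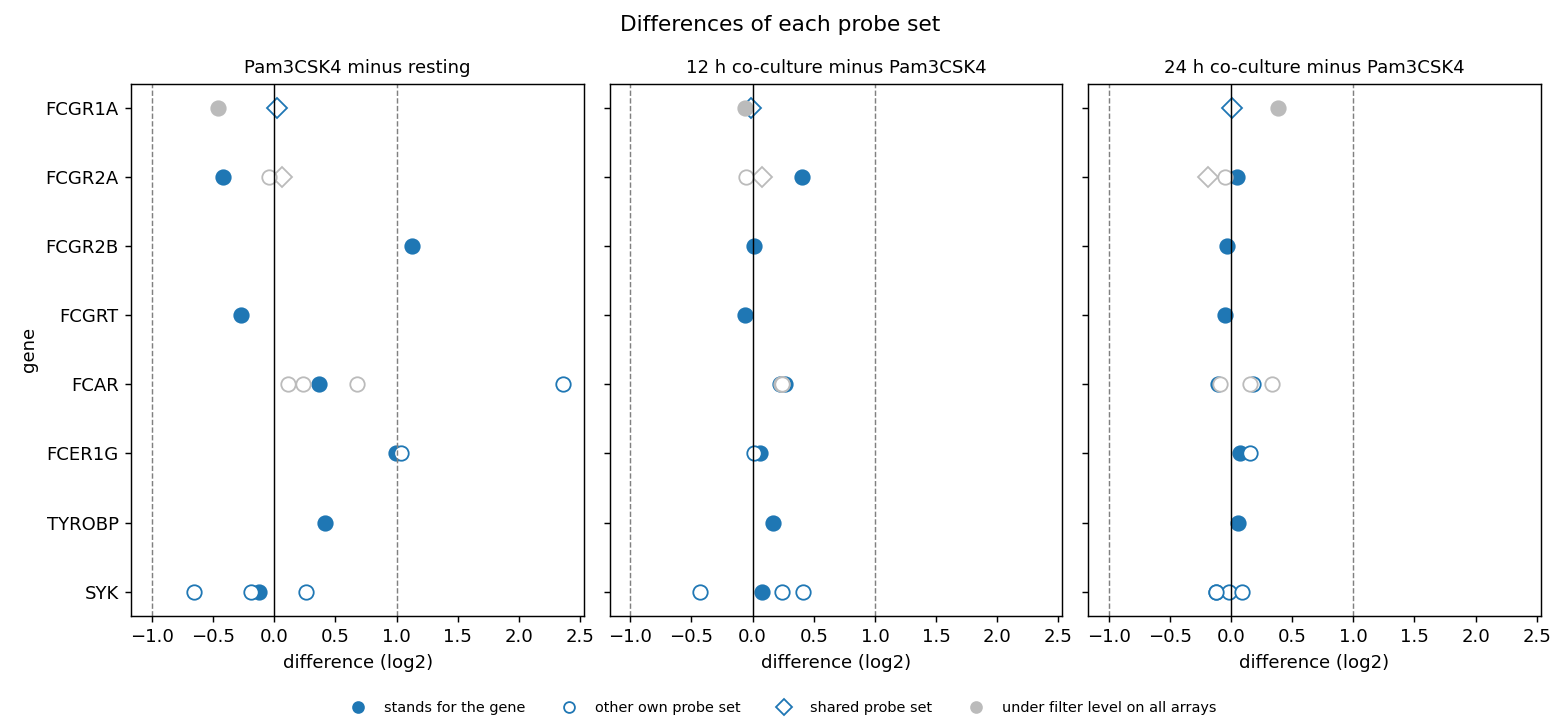
Differences on the log2 scale for each probe set of the 8 genes, with Pam3CSK4 minus resting at the left, 12 h co-culture minus Pam3CSK4 in the middle and 24 h co-culture minus Pam3CSK4 at the right. Dashed lines mark 2-fold, and grey symbols are under the filter level on every array. Points at or past the upper line occur in the left panel, for FCGR2B, FCER1G and FCAR, and in neither co-culture panel.

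The kinases and partners around these receptors were taken from 7 lists that hold 118 gene entries. Of these, 86 entered, and with Pam3CSK4 5 were at least 2-fold higher than in resting cells and 4 lower, against 5.85% of all genes in either direction. The Src family, which phosphorylates the tyrosine motifs, held several of them. LYN, a main kinase at Fc receptors, read 12.76 at 24 h, 12.75 at 12 h, 12.67 with Pam3CSK4 and 10.68 in resting cells, and its 3 probe sets differed by 1.99 to 2.39 log2 between Pam3CSK4 and resting cells. FGR, another myeloid member, read 9.23, 8.86 and 9.14 on the treated arrays in that order and 7.47 in resting cells, a Pam3CSK4 minus resting difference of 1.68. PTPRC, the phosphatase CD45 that keeps Src kinases ready to act, was higher by 1.10 and YES1, a widely expressed Src-family kinase, stood at -1.12. Of the 9 entered genes in that list 3 were thus at least 2-fold higher and 1 lower, with a median of 0.50.

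Receptors that signal through FCER1G or TYROBP differed in both directions. CLEC5A, a TYROBP-coupled lectin, read 7.00 at 24 h, 7.93 at 12 h and 6.80 with Pam3CSK4, against 4.99 in resting cells, where it was under the filter level. TREM2, a lipid-binding receptor that also uses TYROBP, read 10.98 at 24 h, 11.55 at 12 h and 10.61 with Pam3CSK4, against 12.12 in resting cells. The 2 receptors were thus on opposite sides of their resting level on every treated array, with Pam3CSK4 minus resting differences of -1.52 for TREM2 and 1.81 for CLEC5A. The CLEC5A difference is not exact, because its resting value is under the filter level. LILRA2, an activating leukocyte receptor that uses FCER1G, differed by -1.38 on its probe set of highest mean and by as little as -0.0036 on another. With 10 of 21 entered, 1 was at least 2-fold higher and 2 lower, and the median was -0.10.

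Downstream of SYK the list was close to level, with a median of 0.02 over 27 entered genes, 1 at least 2-fold higher and 0 lower. The 1 was the transcription factor gene NFATC1 at 1.25 log2, named outside the rule after its value was seen, since its 5 probe sets ran from -0.23 to 1.25. Inhibitory receptors and phosphatases had a median of 0.15 over 19 entered genes, with 0 higher and 1 lower. That 1 was PTPN22, a phosphatase that restrains Src and SYK-family kinases, which read 6.52 at 24 h, 5.94 at 12 h and 6.15 with Pam3CSK4, against 7.61 in resting cells. Its 12 h and Pam3CSK4 values lay under the filter level, which limits how exact the Pam3CSK4 minus resting difference of -1.46 on both its probe sets is. The actin and engulfment list had a median of 0.27 and the other Fc receptors a median of 0.0040, over 13 and 7 entered genes, with 0 at least 2-fold different in either. The probe sets of FCGR3A and FCGR3B, the low-affinity receptor CD16, lay between 3.78 and 5.15 on the 4 arrays, under the filter level.

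**Figure D3:**
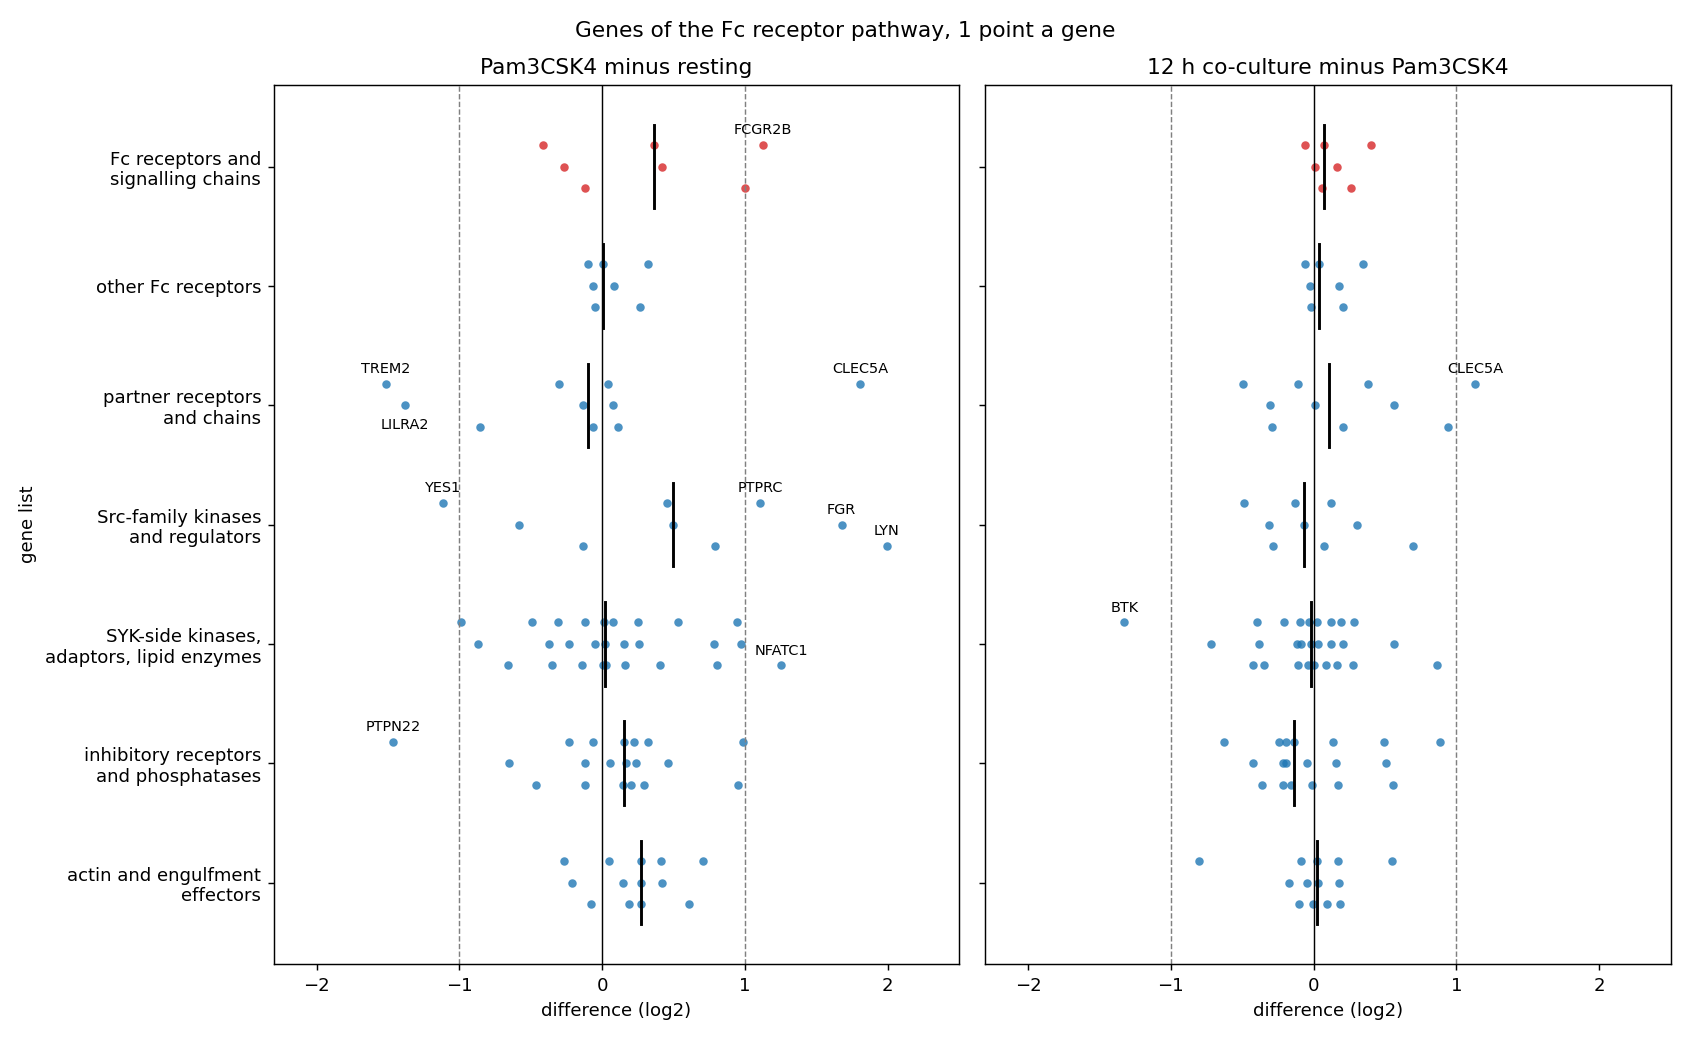
Differences on the log2 scale of the entered genes, 1 point a gene, for the 8 genes (red) and 6 pathway lists (blue, without the partner list of FCGRT), with Pam3CSK4 minus resting at the left and 12 h co-culture minus Pam3CSK4 at the right. Black bars are list medians, dashed lines mark 2-fold and genes past it are named. LYN at 1.99 and TREM2 at -1.52 are the outermost points at the left, and CLEC5A at 1.13 and BTK at -1.32 are the named genes at the right.

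The genes whose profile over the 4 arrays lay nearest to a member were found by the Euclidean distance between profiles centred on their mean, for members that spanned at least 1 log2. For FCER1G these were CD70, ULBP2 and CPNE4, at distances of 0.04, 0.04 and 0.05 log2. For FCGR2B they were PLEK, CCDC88A and APBA3, at distances of 0.03, 0.05 and 0.05. Each of the 6 differed by 0.95 to 1.12 log2 between Pam3CSK4 and resting cells. With 4 arrays that share conditions this likeness is a description.

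The co-culture with particles for 12 h was then set against Pam3CSK4 alone. None of the 7 entered members differed 2-fold, against 0.761% of the 13410 genes, and the median was 0.07 beside -0.05 over all genes. FCGR2A had the largest difference, 9.26 at 12 h against 8.86 with Pam3CSK4, or 0.40 log2, and 4.50% of genes differed at least as far upward. Averaged with its other own probe set, which is under the filter level, the difference was 0.18. The 3 FCGR2C probe sets above the filter level differed by 0.21, 0.09 and -0.03. All 5 FCAR probe sets were higher at 12 h, by 0.22 to 0.26 log2, and TYROBP was higher by 0.16. Of the 12 probe sets 0 differed 2-fold, against 0.661% of all. FCER1G and FCGR2B differed by 0.06 and 0.0082, and FCGRT by -0.06, a direction that turned to 0.05 with cyclic loess. The SYK probe sets differed by 0.07, 0.24, 0.41 and -0.43, with 209269_s_at again of the opposite sign.

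Because platelets carry FCGR2A and FCER1G, the platelet markers on the same arrays are given beside these values. Of 16 megakaryocyte and platelet markers 15 had a probe set of their own, and 9 reached the filter level at 24 h, 10 at 12 h, 8 with Pam3CSK4 and 9 in resting cells. Their summed log2 level was 95.2 at 24 h, 98.1 at 12 h, 93.5 with Pam3CSK4 and 90.9 in resting cells. PF4 and PPBP, which encode platelet granule chemokines, and GP6 stayed under the filter level on every array, with PPBP between 3.40 and 3.79. Of the 10 platelet markers that entered, 8 were above their Pam3CSK4 value at 12 h, and the median difference was 0.38 log2, beside -0.05 over all genes. After THBS1 the next in size, named after their values were seen, were TREML1 at 0.54 and SELP, which encodes P-selectin, at 0.51. THBS1 alone of the 10 differed 2-fold. TREML1 read 7.12 at 12 h, 6.58 with Pam3CSK4 and 7.25 in resting cells, which had no particles. SELP read 6.57 at 12 h, 6.06 with Pam3CSK4, under the filter level, and 6.37 in resting cells. Like TREML1, GP9, ITGA2B and NRGN were higher in resting cells than at 12 h, and the other entered markers were lower. THBS1, which monocytes also express, gave 1.32 of the 12 h minus Pam3CSK4 sum. It read 7.48 with Pam3CSK4 and 3.32 in resting cells, under the filter level there. That difference, 4.16 log2, exceeds the one between the summed levels of these arrays. The 3 THBS1 probe sets above the filter level differed by 0.11 to 4.16 there, and by 0.05 to 1.32 between 12 h and Pam3CSK4. The median of the 10 entered markers for Pam3CSK4 minus resting was -0.18, beside -0.05 over all genes. Transcripts of fetal globin, HBG1 and HBG2, were higher at 12 h than with Pam3CSK4 by 2.62 to 4.04 log2 on 3 shared probe sets, and at 24 h by at least 3.38. The Pam3CSK4 array did not reach the filter level on 2 of the 3, and differences from it there are not exact. Markers of other cells with a probe set of their own were also summed on each array. The sums stayed within 29.7 to 30.3 for 5 B cell markers and 45.9 to 46.8 for 7 NK and T cell markers. For 4 mast cell markers they stayed within 26.0 to 26.8. The sum of 4 erythroid markers was 25.9 at 24 h, 25.8 at 12 h, 23.7 with Pam3CSK4 and 23.8 in resting cells. Of its 24 h minus Pam3CSK4 difference, HBE1 gave 2.05, from a Pam3CSK4 value under the filter level, and CA1 gave 0.29. At 12 h HBE1 gave 0.85 and CA1 0.83. ALAS2 and SLC4A1 stayed under the filter level on every array. The part of RNA from the particles in the FCGR2A value was not tested.

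In the surrounding pathway 1 of 86 entered genes was at least 2-fold higher at 12 h than with Pam3CSK4 and 1 lower, against 0.761% of all genes in either direction. CLEC5A was higher by 1.13 and BTK, a kinase that acts beside SYK, stood at 7.25 at 12 h against 8.57 with Pam3CSK4. TREM2 was higher by 0.94, so its 12 h value lay between those of the Pam3CSK4 and resting arrays. The monocyte marker CD14 read 7.74 at 12 h against 8.93 with Pam3CSK4, a difference of -1.18. Of the 8 entered monocyte markers 2 were at least 2-fold lower, CD14 and MNDA at -1.16, and 0 higher. Their median was -0.41, and CSF1R was higher by 0.33.

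The co-culture for 24 h was also set against Pam3CSK4 alone, with the same Pam3CSK4 array in both comparisons. Of the 7 entered members 0 differed 2-fold, against 0.0298% of genes, and their differences ran from -0.12 for SYK to 0.07 for FCER1G. The median was -0.03, and 0 of the 12 probe sets differed 2-fold, against 0.0293% of all. Likewise 0 of the 86 pathway genes differed 2-fold. The largest difference on any probe set of the 8 genes was 0.39, on the FCGR1A probe set under the filter level. FCGR2A, at 8.91 at 24 h against 8.86 with Pam3CSK4, differed by 0.05 log2.

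Set against each other, the 24 h and 12 h co-cultures differed by 0.0063 log2 for FCGRT and 0.01 for FCER1G, values that turned to -0.10 and -0.09 with cyclic loess. On the other FCER1G probe set the difference was 0.14. FCGR2A was lower at 24 h by 0.35 and FCAR by 0.36 on its probe set of highest mean, sizes that 6.04% and 5.55% of genes matched or passed downward. On 207674_at FCAR differed by -0.04. None of the 7 entered members reached 2-fold, against 0.567% of genes, and 0 of the 12 probe sets, against 0.498% of all, and the median was -0.11 beside 0.04 over all genes. BTK, at 8.31 at 24 h against 7.25 at 12 h, was the 1 pathway gene of 86 that differed 2-fold. No Pam3CSK4 array is labelled with a time of its own, and the effects of time and of particles cannot be told apart.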

How the data were processed

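Biotin-labelled copies of THP-1 RNA were read on 4 arrays, per the labels' protocols, and the probe sets carry Affymetrix names. The values deposited by the authors are log2 levels made with RMA in affy 1.28.1, per the submitters' processing notes. The members and lists were chosen with earlier results of these data known. Platform annotation named 1 gene for 41091 probe sets, several for 1801 and none for 11721, with 62 control probe sets set aside. Of the 41091, 41037 had gene identifiers in the RefSeq table of GRCh38.p14, which updated 0 symbols. A gene stood by its probe set of highest mean and entered at 6.19 (the median over all arrays). Differences of 2 log2 values were counted at 2-fold. Named genes were the 8 members and, per list and comparison, up to 6 genes at least 2-fold different whose other probe sets shared the sign. Alternatives changed the filter (none, 75th percentile), the probe sets (mean, or without _x_at and _s_at), the scaling (cyclic loess, 3 iterations, limma 3.58.1, R 4.3.3) and the threshold (1.5-fold, 3-fold). A further alternative, the probe set of widest span, was chosen after seeing the data. The counting was tested on simulated arrays. Python 3.11.15, pandas 2.3.3 (with numpy 2.4.6) and matplotlib 3.10.9 served for the rest.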

Additional observations from a re-analysis of the deposited data

How the results depend on the processing

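The number of members at least 2-fold different between Pam3CSK4 and resting cells was 1 of 7, against 5.85% of all genes. It hung on the processing, and so did the number entered and the share of all genes. It was 2 of 7 with cyclic loess, 2 of 6 with the mean of probe sets and 2 of 7 at 1.5-fold. The shares of all genes there were 5.87%, 4.98% and 13.5%. In each of these FCER1G was counted too, which lies on the 2-fold line (1.01 log2 as a mean of its probe sets). The count was 0 of 7 at 3-fold, against 2.81%, and 0 of 5 with the 75th percentile filter, against 7.22%. That filter leaves out FCGR2B and FCAR and turns the median of members to -0.12. With the probe set of widest span, chosen after seeing the data, it was 3. Without _x_at and _s_at probe sets it was 1 of 5, against 6.03%, with FCAR in the place of FCGR2B, which then has no value. In the other 3 comparisons the count stayed at 0 under each alternative run. Shares of all genes ran from 0.134% to 4.76% for 12 h minus Pam3CSK4. They ran from 0.00855% to 0.172% for 24 h minus Pam3CSK4 and from 0.0746% to 4.52% for 24 h minus 12 h. Medians of the members ran from 0.06 to 0.18 for 12 h minus Pam3CSK4 and from -0.21 to -0.04 for 24 h minus 12 h. For 24 h minus Pam3CSK4 the median ran from -0.03 to 0.06 and thus changed sign. Without a filter or with the mean of probe sets the Pam3CSK4 minus resting median was 0.12. No paired analysis was possible because each condition has 1 array. No detection calls were used here, so whether values under the filter level stand above background was not tested.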
